A study of Mus musculus with 4 samples.

Results

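The genes described are those of triglyceride synthesis: the lipins Lpin1, Lpin2 and Lpin3 and the acyltransferases Gpam, Agpat2, Dgat1, Dgat2 and Mogat1. They were measured by every spot on the array that is not a control and that carries one of these 8 gene names, of 31709 distinct names on the array, and 10 probes matched of 39429. The 8 genes were selected on the ratios of fasted over re-fed liver, which were known when the set was drawn up, so these ratios and the levels behind them are given as a description. No p is given for them, and where a probe is said to be called, this only places it by the limits applied to all probes.

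Male C57BL/6J mice (strain C57/Bl6 in the labels) of 8 to 12 weeks were used, and liver RNA of single animals was compared on 4 two-colour arrays. All mice had food withdrawn for 24 h. The 4 fasted livers were taken at that point, and the 4 re-fed livers after a further 2 h with food. A fasted and a re-fed liver shared each array under different dyes, Cy5 read in red and Cy3 in green, and each array counts as a replicate (n = 4). Fasted RNA carried Cy5 on replicates 1 and 2 and Cy3 on replicates 3 and 4. The design therefore compares a long fast with the first hours of feeding, and holds no group that was fed throughout. In whole liver, fewer cells of a type and less RNA per cell cannot be told apart.

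Triglycerides are built by adding fatty acids, activated as acyl-CoA, one after another to glycerol 3-phosphate. Gpam, the mitochondrial glycerol-3-phosphate acyltransferase, catalyses the first addition, and Agpat2, an acyltransferase of the endoplasmic reticulum, the next, which yields phosphatidate. The lipins remove the phosphate from phosphatidate to give diacylglycerol, and lipin 1 is also known as a nuclear partner of transcription factors of fatty acid oxidation in liver. Mogat1 makes diacylglycerol from monoacylglycerol, and Dgat1 and Dgat2 add the last fatty acid.

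On each array an oligonucleotide of 60 bases stands for a transcript, and its first 30 bases are printed here for the lipin probes on which the results turn, because the pair of Lpin1 probes gave different readings. Each is written 5′ to 3′ from the deposited array files, with its position in the mouse genome build mm9.
Lpin1, chr12:16543695-16543754, minus strand: aggtctcatgtggtccacatagttcacagg
Lpin1, chr12:16542515-16542574, minus strand: attatccatgaatgaggcctaatgacagtg
Lpin2, chr17:71596935-71596994, plus strand: agcagaagaacaaatgcacagttcatgtct
The second Lpin1 probe starts 1180 bases further toward the 3′ end of the gene than the first. The remaining probes lie in Lpin3 (chr2:160731469-160731528), Gpam (chr19:55144289-55144348 and chr19:55143274-55143333), Agpat2 (chr2:26449107-26449166), Dgat1 (chr15:76333128-76333274, where the 60 bases span 147 genome positions), Dgat2 (chr7:106302215-106302274) and Mogat1 (chr1:78534677-78534736).

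The brighter of the pair of Lpin1 probes and the Lpin2 probe read higher in fasted than in re-fed liver on every array, the dim Lpin1 probe did so on 3 of 4, and the third lipin and the acyltransferases differed little between the conditions. All values are log2 ratios of fasted over re-fed liver, so that a value above 0 means more signal in the fasted liver. The fit over all probes used those that stood well above background in all 4 livers of either condition and lacked no array value. This held for 8 of the 10 probes, from 7 of the 8 genes, and these 8 probes were well above background in all 8 livers. A probe was called if its adjusted p in limma (Benjamini-Hochberg over 19721 kept probes) was under 0.1 and its mean ratio reached 1.5-fold.

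The Lpin1 probe nearer the 5′ end gave log2 ratios of 2.32, 3.92, 1.90 and 2.56 on replicates 1 to 4. All 4 arrays therefore showed more signal of this probe in the fasted liver, with replicate 2 far above the other three. The mean log2 ratio was 2.67 ± 0.87 (SD, n = 4), or 6.38-fold, the 5th highest of the 19721 kept probes. In log2 intensity after normalization between arrays, Lpin1 measured 11.20, 11.34, 9.41 and 9.60 in the fasted livers of replicates 1 to 4. In the re-fed livers it measured 8.88, 7.42, 7.51 and 7.03. The lowest fasted liver lay above the highest re-fed liver, and the fasted livers labelled with Cy5 were higher than those labelled with Cy3.

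The second Lpin1 probe was dim, with log2 ratios of 0.64, 1.19, -0.11 and 0.01. Its readings clearly above 0 came from the arrays on which the fasted liver carried Cy5. It was well above background in 2 of 4 fasted livers and in 0 of 4 re-fed livers, so it was not kept. Its log2 intensity averaged 6.63 in the fasted and 6.20 in the re-fed livers. The mean log2 ratio of 0.43 ± 0.60 (SD, n = 4) moved with the processing, to 0.18 without replicate 2, 1.30 with plain subtraction of the background and 2.08 with Agilent's processed signals. At this signal no fold was set for the dim probe.

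The Lpin2 probe gave log2 ratios of 1.09, 2.07, 1.63 and 2.74 on replicates 1 to 4, with a mean of 1.88 ± 0.70 (SD, n = 4), or 3.69-fold. It ranked 18th from the highest of the 19721 kept probes. Lpin2, the phosphatidate phosphatase usually described as the main lipin of liver, thus also had more signal in the fasted liver on every array, but its array with the largest ratio was replicate 4 and not replicate 2. The log2 intensity was 9.39, 9.40, 9.30 and 9.99 in the fasted livers of replicates 1 to 4, and 8.30, 7.33, 7.66 and 7.25 in the re-fed livers. The fasted livers were close together apart from replicate 4, the re-fed liver of replicate 1 was the highest of its group, and the groups did not overlap.

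The Lpin3 probe gave log2 ratios of 0.34, 0.40, 0.29 and 0.07, with a mean of 0.27 ± 0.14 (SD, n = 4). Lpin3, the least studied of the lipins, was above 0 on all 4 arrays, but its size was far from that of Lpin1 and Lpin2. Its log2 intensity ran from 8.12 to 8.51 in the fasted and from 7.89 to 8.17 in the re-fed livers, so that the groups overlapped.

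**Figure D1:**
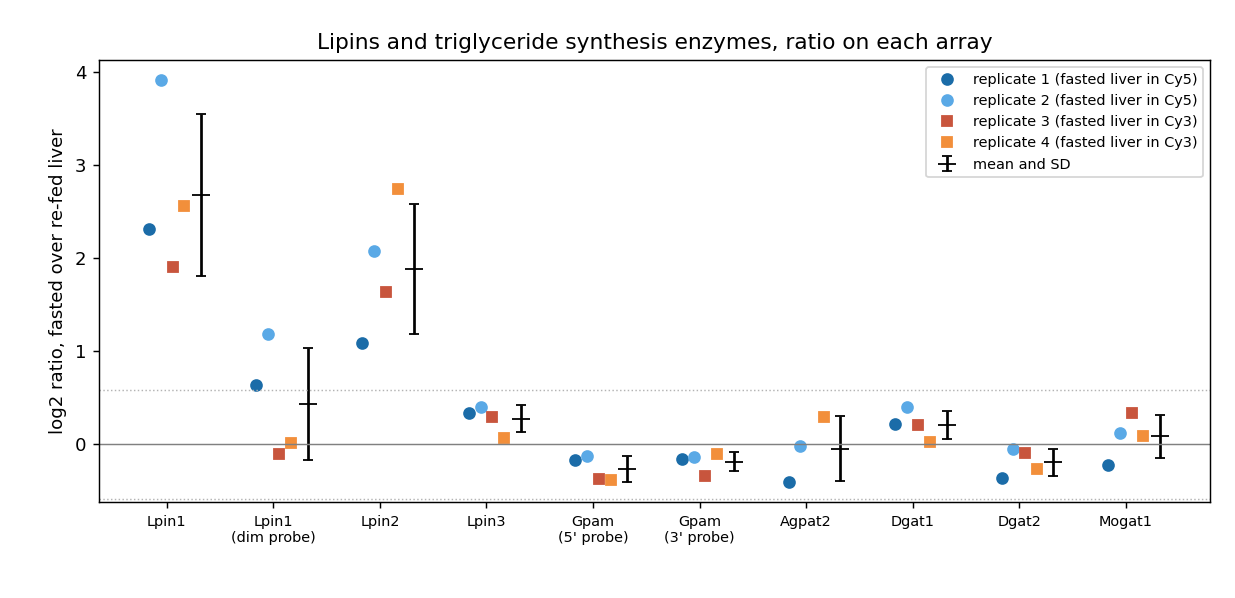
Log2 ratio of fasted over re-fed liver (vertical axis) for each of the 10 probes of the 8 genes. Circles and squares are the 4 arrays, coloured by replicate, the black marks are the mean and SD, and dotted lines mark 1.5-fold in either direction. The bright Lpin1 probe and the Lpin2 probe lie above the 1.5-fold line on every array, and all kept probes of the other genes lie between -0.39 and 0.40.

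At the first step, Gpam was measured by a pair of probes. The probe nearer the 5′ end gave log2 ratios of -0.17, -0.12, -0.38 and -0.39, with a mean of -0.26 ± 0.14 (SD, n = 4). The other gave -0.16, -0.13, -0.34 and -0.11, with a mean of -0.19 ± 0.11. Both probes were below 0 on all 4 arrays, and in both the levels of fasted and re-fed livers overlapped.

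At the next step, Agpat2 gave log2 ratios of -0.41, -0.02 and 0.29 on replicates 1, 2 and 4, with a mean of -0.05 ± 0.35 (SD, n = 3). Its spot on replicate 3 was left out because the local background reached an intensity of 200 in red and 80 in green, against array medians of 31 and 29.5. For want of that value Agpat2 was not kept, although it was well above background in all 8 livers. Its sign differed between arrays, and with the spot included its ratio on replicate 3 was 0.21.

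At the final step, Dgat1 and Dgat2 went opposite ways by small amounts. Dgat1 gave log2 ratios of 0.22, 0.40, 0.20 and 0.02, with a mean of 0.21 ± 0.15 (SD, n = 4). Dgat2 gave -0.36, -0.05, -0.09 and -0.27, with a mean of -0.19 ± 0.15. Each had 1 sign on all 4 arrays, and in each the fasted and re-fed livers overlapped, from 8.85 to 9.35 against 8.83 to 9.13 in log2 intensity for Dgat1 and from 14.37 to 14.80 against 14.59 to 14.97 for Dgat2. Mogat1, which supplies diacylglycerol by the monoacylglycerol route, gave -0.22, 0.12, 0.34 and 0.09, with a mean of 0.08 ± 0.23, and was the only kept probe of the 8 whose sign differed between arrays.

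Of the 8 kept probes 2 were called higher in fasted liver, those of the bright Lpin1 probe and Lpin2, where 1.7% of all kept probes were called higher and 2.08% lower. The same 2 were the only ones of the 8 whose fasted livers all lay above the re-fed livers, which held for 5.81% of all kept probes, and the reverse held for 7.78%. These counts rest on the contrast by which the genes were chosen and carry no weight beyond description. The other 6 probes were not called, with mean log2 ratios from -0.26 to 0.27. The median of the 8 mean log2 ratios was 0.15, against -0.001 over all kept probes.

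**Figure D2:**
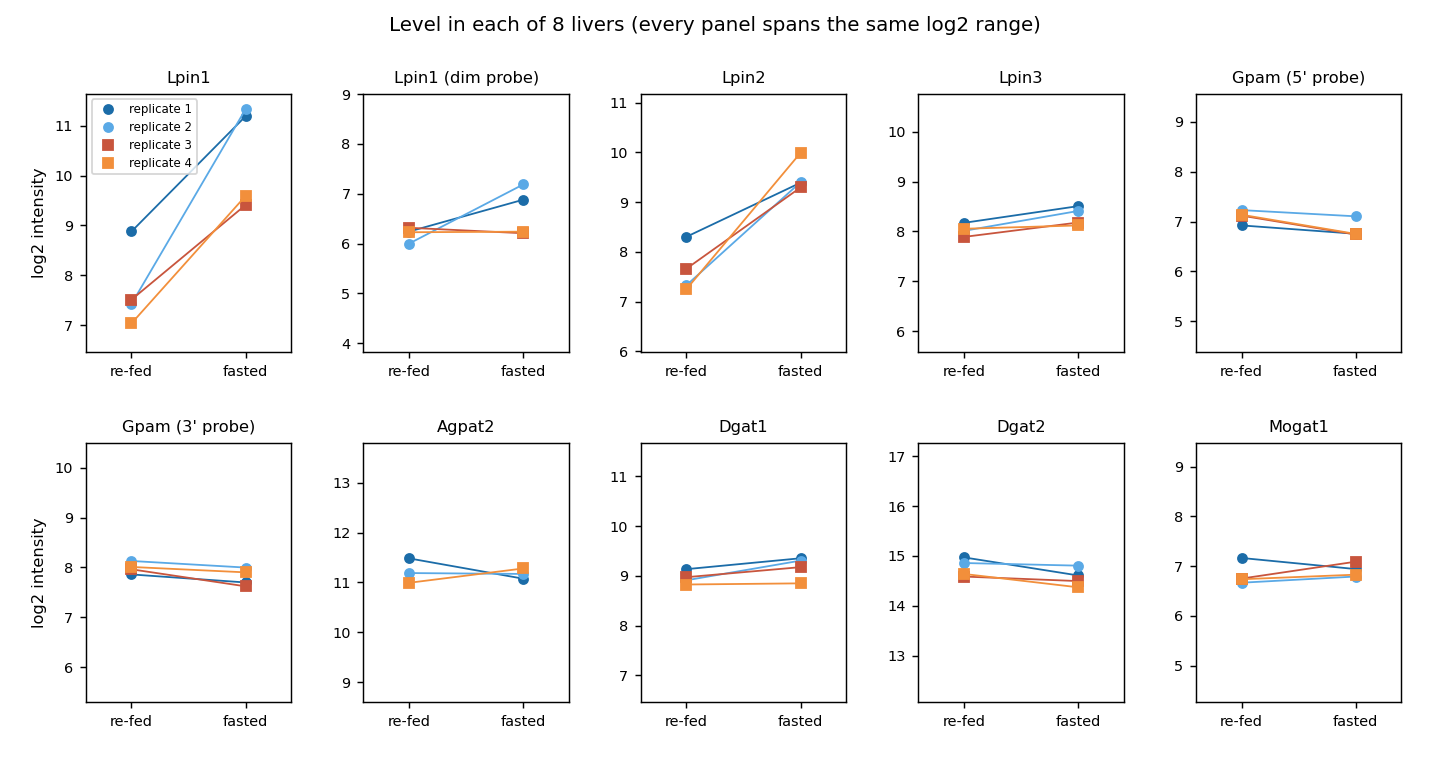
Log2 intensity after normalization within and between arrays (vertical axis) in the re-fed and the fasted liver of each array, 1 panel per probe, with lines joining the livers of 1 array and every panel spanning the same range. The bright Lpin1 probe lay between 7.03 and 8.88 in re-fed and between 9.41 and 11.34 in fasted livers and the Lpin2 probe between 7.25 and 8.30 and between 9.30 and 9.99. The dim Lpin1 probe overlapped, at 6.00 to 6.32 in re-fed and 6.21 to 7.19 in fasted livers, and the lines of the other genes are nearly flat. Intensities of different probes are not on a common scale.

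The calls of Lpin1 and Lpin2 depended on how the background was modelled. When the 55 spots with a local background over 3 times the array median were kept, the mean log2 ratio was 1.64 for Lpin1 and 0.88 for Lpin2, and neither was called. With 1 array left out at a time the mean ran from 2.26 to 2.93 for Lpin1 and from 1.60 to 2.15 for Lpin2.

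**Figure D3:**
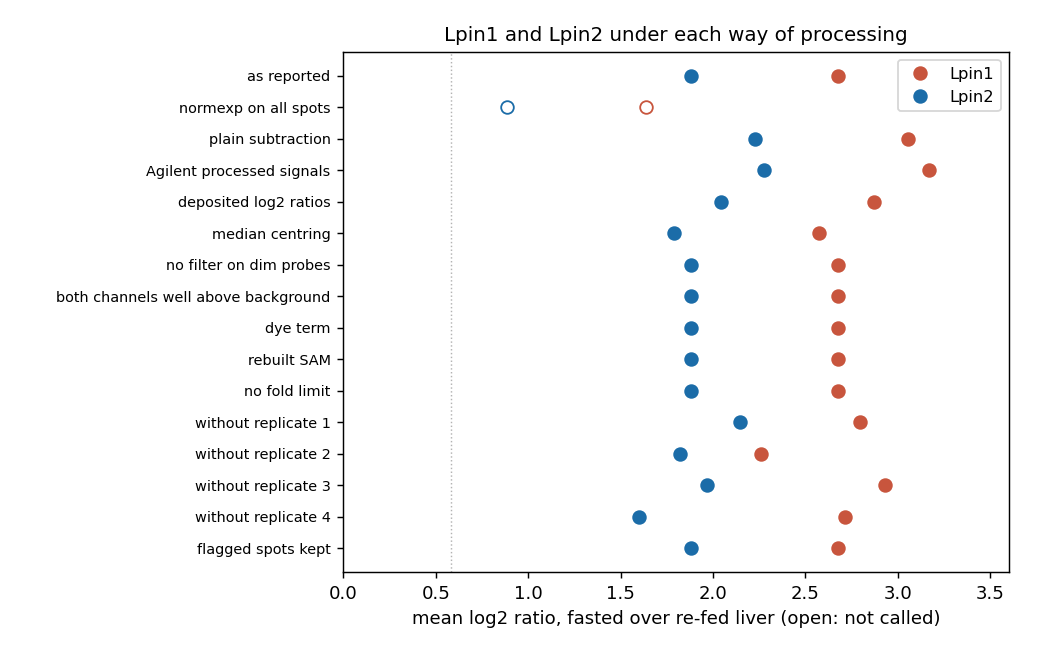
Mean log2 ratio of fasted over re-fed liver (horizontal axis) of the bright Lpin1 probe and the Lpin2 probe as reported and under each other way of processing, with filled points where the probe was called, open points where it was not, and a dotted line at 1.5-fold. Both stay above 0 throughout, from 1.64 to 3.17 for Lpin1 and from 0.88 to 2.28 for Lpin2, and the open points are those with normexp on all spots.

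Because dyes were swapped, the difference between Cy5 and Cy3 on the same spots could be measured apart from the feeding state, and this was not used to choose the genes. For Lpin1 the mean log2 ratio of fasted over re-fed liver was 3.12 on the arrays with the fasted liver in Cy5 and 2.23 on those with it in Cy3. The dye effect, as log2 of Cy5 over Cy3, was 0.44 (95% interval -0.19 to 1.07, adjusted p = 0.313, limma). Lpin2 ran the other way, at 1.58 and 2.19, with a dye effect of -0.30 (95% interval -0.85 to 0.24, adjusted p = 0.419, limma). With normexp on all spots the Lpin1 dye effect was 1.48 (adjusted p = 0.124, limma), and that of Lpin2 turned to 0.70 (adjusted p = 0.165, limma). Among the 8 kept probes the dye effect ran from -0.30 to 0.44, and 0 were called in limma at an adjusted p under 0.1, where 14.8% of all kept probes were. An unadjusted p under 0.05 in limma was found for 0 of the 8, against 5 of 9 with normexp on all spots. The share of all probes at that cut is not given, so these counts cannot be set against it.

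The libraries differed in RNA of other cell types, which is given here beside the lipin values. The hepatocyte list was measured in full, with 7 of 7 markers well above background in all livers. Its mean log2 ratio was 0.36, 0.56, 0.11 and 0.01 on replicates 1 to 4, and 1 marker, Tat, the tyrosine aminotransferase of amino acid breakdown, was called higher in fasted liver at a mean of 0.84 (adjusted p = 0.0451, limma). The 8 pancreatic acinar markers, of which 4 were kept, had a mean log2 ratio of -3.24 on replicate 3 and of -0.03 to 0.06 on the others, and their summed intensity ran from 1401 to 29789 in the re-fed and from 1507 to 2298 in the fasted livers. The mean log2 ratio was 2.67 for Lpin1 and 1.88 for Lpin2 over all 4 arrays, and 2.93 and 1.97 without replicate 3. The 3 blood markers that had a probe averaged 1.73, -0.27, 1.99 and 0.20 on replicates 1 to 4, with summed intensities from 25673 to 121370 in the fasted and from 15227 to 34814 in the re-fed livers. On the same replicates 1 to 4 the log2 ratios were 2.32, 3.92, 1.90 and 2.56 for Lpin1 and 1.09, 2.07, 1.63 and 2.74 for Lpin2. The 6 adipose markers averaged -0.02, 0.13, -0.41 and 0.15 on replicates 1 to 4, lowest on the array with the acinar signal, where Cfd was at -1.37, Fabp4 at -0.41 and Adipoq at -0.36. Cfd and Fabp4 were kept, Adipoq and Retn were each well above background in 1 re-fed liver and in no fasted liver, and Lep and Plin1 in no liver. The adipose sum ran from 946 to 1248 in the fasted and from 911 to 1312 in the re-fed livers. The summed intensity of the 5 endothelial and stellate markers ran from 2994 to 3167 in the fasted and from 2403 to 2807 in the re-fed livers and did not overlap. Within that list Stab2, a scavenger receptor of sinusoidal endothelium, had a mean log2 ratio of 0.35 (adjusted p = 0.0478, limma), under 1.5-fold, and Lrat, a retinol-esterifying enzyme of stellate cells, one of -0.36 (adjusted p = 0.172, limma), while the mean over the list ran between -0.02 and 0.07. No skeletal muscle marker of the 5 was well above background in any liver. The part of these markers in the lipin values was not tested beyond the values given.

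The promoter windows of the pair of lipins are printed because each gene had a probe called higher in fasted liver. Each is the 250 bases before a transcript start that RefSeq lists on the mouse build GRCm38.p6, 5′ to 3′ on the strand of the gene, with motif matches in capitals. The motifs searched on both strands were the full CREB response element TGACGTCA, its half-site TGACG, which every full element contains, the TATA box TATAAA, the E-box CACGTG, the forkhead motif TGTTTAC, the nuclear receptor repeat DR1 and the CCAAT box CCAAT. The full element had to match exactly here, while the study's own search also allowed it 1 mismatch. Among 32851 windows of this length on the genome, 1.55% held the full element, 17.8% the half-site, 12.4% the TATA box, 6.02% the E-box, 3.17% the forkhead motif, 0.0335% DR1 and 33.8% the CCAAT box.
Lpin1, chr12:16610967-16611216, minus strand: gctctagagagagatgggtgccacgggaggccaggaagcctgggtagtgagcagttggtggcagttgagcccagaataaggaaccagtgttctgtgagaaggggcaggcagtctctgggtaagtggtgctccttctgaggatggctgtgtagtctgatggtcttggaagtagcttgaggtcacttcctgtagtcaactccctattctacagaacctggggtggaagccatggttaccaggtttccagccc
Lpin2, first of 3 windows, chr17:71183282-71183531, plus strand: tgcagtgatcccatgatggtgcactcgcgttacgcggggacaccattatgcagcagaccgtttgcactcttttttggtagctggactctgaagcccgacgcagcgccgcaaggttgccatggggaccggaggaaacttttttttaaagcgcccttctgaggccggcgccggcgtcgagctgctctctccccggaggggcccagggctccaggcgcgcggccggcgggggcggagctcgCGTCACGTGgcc
Gpam, second of 2 windows, chr19:55099478-55099727, minus strand: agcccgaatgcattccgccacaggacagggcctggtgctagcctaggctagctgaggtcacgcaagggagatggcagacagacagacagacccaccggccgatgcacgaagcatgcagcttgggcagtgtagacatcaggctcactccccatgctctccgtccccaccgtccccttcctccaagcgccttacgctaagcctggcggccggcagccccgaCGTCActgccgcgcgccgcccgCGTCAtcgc
In the Lpin2 window the capitals are a half-site on the reverse strand that begins 12 bases before the start and an E-box that begins 9 bases before it, sharing 2 bases. In the Gpam window, the only window with a half-site among the examined genes without a called probe, they are 2 half-sites. Both are on the reverse strand, 31 and 9 bases before the start. The 1 Lpin1 window, which lies at a start inside the span RefSeq gives the gene, held none of the motifs, and other Lpin1 starts were not examined. Of the others, the second Lpin2 window held none, and the third held a forkhead match and 3 CCAAT boxes. The first Gpam window held 1 CCAAT box, and neither of the 2 Lpin3 windows nor the windows of Agpat2 and Mogat1 held any motif. Dgat1 and Dgat2 were not examined. A match is only a run of letters, and its absence says only that the letters are not in the window.

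The genes around the lipins and acyltransferases in glycerolipid metabolism were measured with the same fit, each by its brightest kept probe. Of 54 listed genes 44 had a kept probe. In limma 1 was called higher and 1 lower in fasted liver, against 1.7% and 2.08% of all kept probes, and 11 of the 44 had an unadjusted p under 0.05, where 21.6% of all kept probes did, so that this count lies near the share over all probes. The median of the mean log2 ratio was 0.04, in a range from -0.61 to 1.01, with 28 genes above 0 and 16 below it.

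Gpat3, a glycerol-3-phosphate acyltransferase of the endoplasmic reticulum that carries out the same step as Gpam, was the gene called higher. Its log2 ratios were 0.59, 1.70, 0.90 and 0.84 on replicates 1 to 4. Every array showed more signal in fasted liver, with replicate 2 the highest, and the fasted livers at 9.86 to 10.53 in log2 intensity lay above the re-fed livers at 8.84 to 9.75. The mean log2 ratio was 1.01 ± 0.48 (SD, n = 4; adjusted p = 0.0310, limma), and Gpat3 was not called without replicate 3 or with normexp on all spots. Gpat4, the related enzyme of the same membrane, had a mean of 0.51 ± 0.16 (adjusted p = 0.0273, limma), above 0 on 4 of 4 arrays but under 1.5-fold and so not called.

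Pgs1, which makes phosphatidylglycerophosphate on the way to cardiolipin, was the gene called lower. Its log2 ratios were -0.39, -0.97, -0.45 and -0.62, so that all 4 arrays showed less signal in the fasted liver, and the groups did not overlap, at 9.89 to 10.25 in the fasted and 10.51 to 10.95 in the re-fed livers. The mean was -0.61 ± 0.26 (SD, n = 4; adjusted p = 0.0346, limma), close to the 1.5-fold limit, and Pgs1 was not called without replicate 2, 3 or 4 or with normexp on all spots.

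A few other genes passed the adjusted p but not the fold limit. Acsl1, an acyl-CoA synthetase abundant in liver, was higher by a mean log2 ratio of 0.48 ± 0.05 (adjusted p = 0.0183, limma), and its second kept probe gave 0.46 ± 0.49 (adjusted p = 0.209). Tamm41, which makes CDP-diacylglycerol in mitochondria, was higher by 0.29 ± 0.08 (adjusted p = 0.0741, limma). Agpat1, which like Agpat2 makes phosphatidate, was at -0.43 ± 0.17 (adjusted p = 0.0441, limma) and below 0 on 4 of 4 arrays. With Gpat3 and Gpat4, these 2 higher genes make 4 whose fasted livers all lay above the re-fed livers, and Agpat1, Pgs1 and Ctdnep1 were the 3 with all fasted livers below. These counts of 4 and 3 of the 44 lie near the shares over all kept probes, 5.81% and 7.78%.

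By role, the 4 genes of glycerol 3-phosphate supply (Gpd1, Gpd1l, Gpd2 and Gk) had mean log2 ratios from -0.11 to 0.18 and 0 were called, nor did any reach an unadjusted p under 0.05 in limma. The 4 kept acyl-CoA synthetases ran from -0.16 for Acsl4 to 0.48 for Acsl1. The 8 other glycerophosphate acyltransferases spread most, from -0.43 for Agpat1 to 1.01 for Gpat3. The 5 kept lipid phosphate phosphatases, which can also act on phosphatidate, ran from -0.44 for Plpp5 to 0.33 for Plpp3, with 0 called and 2 at an unadjusted p under 0.05 in limma. Ctdnep1, the phosphatase that acts on lipins, had a mean of -0.23 ± 0.18 (adjusted p = 0.210, limma) and its partner Cnep1r1 one of -0.04 ± 0.26. The 6 kept diacylglycerol kinases, which turn diacylglycerol back into phosphatidate, lay between -0.10 and 0.23, with 0 called and 1 at an unadjusted p under 0.05. The 9 kept genes that use phosphatidate or diacylglycerol for phospholipids ran from -0.61 for Pgs1 to 0.29 for Tamm41. The 3 kept acylglycerol acyltransferases lay between -0.12 and 0.02 and the 3 genes of lipid droplet formation in the endoplasmic reticulum between -0.06 and 0.04, with 0 called and 0 at an unadjusted p under 0.05. The 10 listed genes without a kept probe were Acsl6, Plpp4, Awat1, Awat2, Dgat2l6, Cds1, Dgkb, Dgkg, Dgki and Dgkk.

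**Figure D4:**
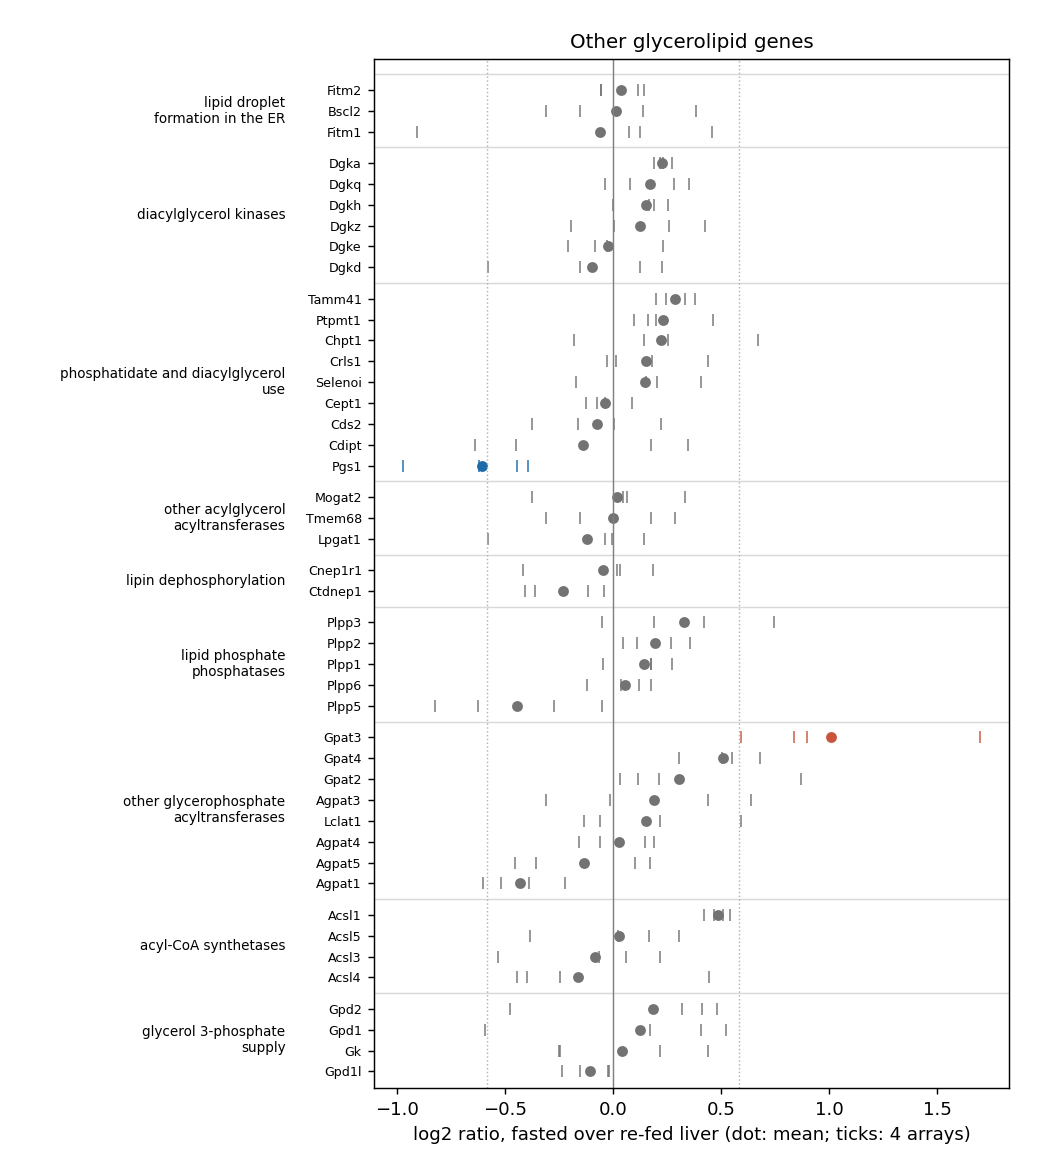
Log2 ratio of fasted over re-fed liver (horizontal axis) of the 44 measured glycerolipid genes outside the 8, in their 9 roles. Dots are means, ticks the 4 arrays, dotted lines 1.5-fold, and colour marks the genes called higher (Gpat3, red) and lower (Pgs1, blue). Most genes lie near 0.

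To find the genes whose readings were most like those of Lpin1 over the 4 arrays, the Euclidean distance of the 4 log2 ratios was taken over 13016 named genes. Pck1, the cytosolic phosphoenolpyruvate carboxykinase of gluconeogenesis, was nearest at a distance of 0.47, with log2 ratios of 2.29, 3.72, 2.27 and 2.35. Like Lpin1, all of the 5 nearest genes were highest on replicate 2. Angptl4, a secreted inhibitor of lipoprotein lipase, followed at 0.93, Gadd45g, a stress-response gene, at 1.30 and Mfsd2a, a lysophosphatidylcholine transporter, at 1.60, with Slc25a47, a mitochondrial carrier of liver, between the last pair. Lpin2 lay at 2.24, farther from Lpin1 than these 5.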

How the data were processed

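Ratios of 4 fasted and 4 re-fed livers were measured on 4 arrays from 200 ng of RNA per liver. The deposited scanner files (Feature Extraction 10.10.1.1 per the file headers) hold raw intensity per spot and local background. The authors also deposited a table of log2 ratios normalized by loess in limma, which was used as an alternative. Its rows matched the spots by row number (r 0.975 to 0.992), and its column medians ran from -0.117 to 0.057. All its columns run as fasted over re-fed, and its background step is not given in the sources used here.

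Median signals were corrected by normexp (offset 50), after leaving out 55 spots with a local background over 3 times the array median. Control spots and flagged spots, 197 to 322 per array, were part of this step. They had no weight in the loess normalization within arrays (limma 3.58.1, R 4.3.3) and were left out after it. No spot was saturated. Median signals were 40 to 75 in red and 44 to 96 in green, over backgrounds of 25 to 35 and 20 to 33, and the number of arrays limits the precision. Spots of a probe were averaged. Levels per liver followed after Aquantile. The fit (lmFit, eBayes) covered 19721 probes. The adjusted p and fold limits follow the study's methods, which used SAM, rebuilt here with 16 sign flips as an alternative.

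All probes of the 8 genes are named, with the called genes of the other list, those past the adjusted p alone, the extremes of each role and the 5 nearest to Lpin1. The genes past the adjusted p alone, and those whose groups did not overlap, were chosen after their values were seen. The 8 genes and all lists were chosen with earlier results of these data known. The macrophage and immune markers (4 of 6 kept) had mean log2 ratios of -0.15 to 0.21 and summed intensities of 2761 to 3736 in fasted and 2269 to 3348 in re-fed livers. Alternatives covered background, normalization, filters, the model, the test, flagged spots and each array left out. Of all probes 26055 were named by accession and 4125 by symbol or synonym. Separate animals stand behind each array. Levels of different probes were compared only to pick a gene's brightest probe and to name the Lpin1 pair bright and dim. The marker sums add the levels of several probes.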

Additional observations from a re-analysis of the deposited data

Results flagged for a closer look

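Of 59 sets of 4 array values examined, 2 had 1 array far from the others, and chance gives about 1 in 20. Gpd2, the mitochondrial glycerol-3-phosphate dehydrogenase, had a log2 ratio of -0.48 on replicate 1 against 0.32 to 0.48 on the other arrays, a gap of 0.833 of its range. The pancreatic acinar marker list had a mean log2 ratio of -3.24 on replicate 3 against -0.03 to 0.06 on the others, a gap of 0.972 of its range.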

How the results depend on the processing

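Of 148 alternative values of the 10 probes, 139 moved by less than 1 SD, 9 moved by more and 0 changed the sign of a called value. Other filters on signal, the dye term, the rebuilt SAM and dropping the fold limit leave a mean ratio unchanged by construction. Their values count among the 139 and say nothing of how stable the ratios are. Agpat2 changed sign under 4 settings and Mogat1 under 2. With normexp on all spots, which keeps 55 spots of high local background, the number of the 8 kept probes called higher fell from 2 to 0 and that of other glycerolipid genes from 1 to 0 in each direction, and over all probes 5 were called higher and 15 lower in place of 335 and 410. Lpin1 and Lpin2 were called under every other setting run. With Agilent's processed signals the other genes called lower were 2 (Agpat1 and Pgs1), and over all probes 685 were higher and 904 lower. With no fold limit 4 other genes were higher (Acsl1, Gpat3, Gpat4 and Tamm41) and 2 lower (Agpat1 and Pgs1). Over all 19721 probes, 935 were then higher and 1208 lower. Leaving out 1 array gave 0 to 1 other gene in each direction. The dye effect was called for 1 of 9 probes with normexp on all spots (Lpin3) and for 1 of 9 with no filter on dim probes (the dim Lpin1 probe). The share of all probes called for dye under these settings is not given. With normexp on all spots the dye effect of Lpin1 moved from 0.44 to 1.48 and that of Lpin2 turned from -0.30 to 0.70, neither called. Median centring moved the median of all probes to -0.06 and gave 230 called higher and 635 lower. The fit is paired by array, since each ratio sets a fasted against a re-fed liver on the same array. Signal over background limits what the dim Lpin1 probe can show. Flagged spots were kept as an alternative chosen after seeing the data.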
